A study of Mus musculus with 16 samples.

Results

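The genes described here are 10 of the IL-6 cytokine pathway, out of 24984 genes counted: the cytokine *Il6*, the receptor chains *Il6ra*, *Il6st*, *Osmr*, *Lifr* and *Il11ra1*, the kinases *Jak1* and *Jak2*, the transcription factor *Stat3* and its feedback inhibitor *Socs3*. They were listed by name and role and followed in all 16 RNA-seq libraries, by tissue and treatment. The list was chosen by role but with the shFOS and shNT values of these libraries already known. The members' differences between treatments are therefore given as a description, without a p-value. The difference between tissues was tested, and that contrast did not choose the list. The test does use shNT libraries whose values were known, so its p-values are to be read with that limit. The libraries came from kidney and liver of wild-type female C57BL/6 mice labelled as 24 months old. The mice had received AAV8, an adeno-associated virus vector, through a vein. The vector carried a short hairpin RNA against *Fos* in the shFOS group and a non-targeting hairpin in the shNT group, so that both groups carried virus, and the study's methods place the collection of tissue 3 months after injection. There were 4 libraries in each of the 4 groups, kidney shNT, kidney shFOS, liver shNT and liver shFOS. AAV8 reaches several organs and cell types, RNA was taken from whole tissue, and one hairpin per group was used. In such bulk samples, fewer cells of a type and less RNA per cell cannot be told apart.

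IL-6 binds its own receptor, IL6RA, and the pair engages gp130, the product of *Il6st*, which carries the signal into the cell. IL-11 does the same through IL11RA1. In the mouse, oncostatin M signals mainly through OSMR paired with gp130, and leukemia inhibitory factor through LIFR paired with gp130. The Janus kinases JAK1 and JAK2 sit on gp130 and phosphorylate it, STAT3 docks there and moves to the nucleus, and SOCS3, a product of STAT3 activity, blocks gp130 and its kinases. In the liver this route drives the acute-phase genes of hepatocytes, such as serum amyloid A. The values below are messenger RNA levels and do not measure phosphorylated STAT3 or surface receptors.

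Levels are given as CPM, read counts scaled to library size with TMM factors. Depth was 14194543 to 15534665 reads on genes in the kidney libraries and 16652150 to 18300277 in the liver libraries. *Fos*, the targeted gene, had 4.73, 3.66, 2.99 and 3.83 CPM in kidney shNT and 1.85, 2.95, 2.72 and 1.61 CPM in kidney shFOS libraries (log2 fold change -0.73 ± 0.25, adjusted p = 0.0955), and 1.57, 3.34, 5.20 and 4.05 CPM in liver shNT and 2.31, 2.13, 3.87 and 1.97 CPM in liver shFOS libraries (-0.47 ± 0.38, adjusted p = 0.778, both by edgeR's quasi-likelihood test). The kidney groups did not overlap and the liver groups did. The tissues matched their labels: the sum of 5 proximal tubule markers was 2543 to 6961 CPM in kidney and 1.14 to 3.08 CPM in liver, and the sum of 5 hepatocyte markers was 59346 to 260232 CPM in liver and 68.6 to 214.7 CPM in kidney. In each tissue an shNT library stood apart. Liver shNT replicate 4 held 11139 CPM of *Saa1*, an acute-phase gene, where the other shNT livers had 58.8 to 555 CPM, and it was the highest of the 8 livers for 26.9% of all 13144 genes tested and the lowest for 25.7%. Liver results are given with it, and many also without it. A liver fold change given only once includes it. Kidney shNT replicate 4 was the highest of the 8 kidneys for 27.3% of all 14892 genes tested and the lowest for 24.0%.

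The promoters of all 10 members were read from RefSeq (GRCm38.p6, the mm10 assembly), as 12 windows from 250 bases before to 50 bases after a start. Because the hairpin targets a subunit of AP-1, they were searched on both strands for the AP-1 motif TGAGTCA, and also for the Stat dimer motif TTCNNNGAA and the CRE TGACGTCA. Of 32851 promoters of this length, 5.2% held the AP-1 motif, 8.3% the Stat motif and 1.79% the CRE. Among the members, 3 windows held a motif. The *Il6* window had AP-1 from 249 to 243 bases upstream of the start, the *Jak1* window a CRE from 101 to 94 bases upstream, and the *Socs3* window a Stat motif from 154 to 146 bases upstream. The other 9 windows held none of these letters, which says nothing about more distant sites. The stretches around the 3 matches are printed 5′ to 3′ on the gene's own strand, with the motif in capitals, and lie at chr5:30012864-30012911 (+), chr4:101265277-101265364 (-) and chr11:117969472-117969560 (-).
Il6: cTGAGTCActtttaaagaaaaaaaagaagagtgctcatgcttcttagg
Jak1: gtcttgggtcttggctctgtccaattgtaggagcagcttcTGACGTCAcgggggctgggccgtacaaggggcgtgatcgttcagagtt
Socs3: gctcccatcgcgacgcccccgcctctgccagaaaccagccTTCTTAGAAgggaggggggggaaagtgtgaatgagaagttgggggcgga

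In the kidney, *Il6st* was higher and *Osmr* lower in every shFOS library than in every shNT library. *Il6st*, the shared signal chain, is encoded on chromosome 13 (112464070 to 112510086, + strand). Its level was 88.1, 80.4, 90.6 and 85.0 CPM in the shNT kidneys and 102, 141, 136 and 118 CPM in the shFOS kidneys. The groups did not overlap, shFOS replicate 1 was nearest to the shNT range, and the log2 fold change was 0.54 ± 0.11 (SE). *Osmr*, the oncostatin M receptor, lies on chromosome 15 (6813577 to 6874969, - strand). It measured 39.6, 34.5, 37.0 and 37.9 CPM in shNT and 26.9, 26.9, 24.0 and 22.2 CPM in shFOS kidneys, again without overlap and with little spread inside either group. Its log2 fold change was -0.57 ± 0.08.

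*Lifr*, the receptor of leukemia inhibitory factor, lies near *Osmr* on chromosome 15 (7090614 to 7197489, + strand), 215.6 kb away. In contrast to *Osmr*, its kidney groups overlapped, at 56.2, 60.2, 62.1 and 70.4 CPM for shNT and 73.0, 54.0, 49.5 and 60.7 CPM for shFOS, and the log2 fold change was -0.06 ± 0.12. *Il6ra*, the ligand-specific chain for IL-6 (chromosome 3, 89864059 to 89913196, - strand), was scarce in kidney. It had 3.62, 4.51, 4.51 and 4.30 CPM in shNT and 3.88, 6.61, 8.21 and 5.20 CPM in shFOS libraries. Of the shFOS kidneys, 3 lay above all shNT kidneys and replicate 1 lay among them, with a log2 fold change of 0.51 ± 0.24. *Il11ra1*, the IL-11 chain (chromosome 4, 41699989 to 41769474, + strand), had 61.3, 65.0, 66.3 and 49.8 CPM in shNT and 57.2, 56.9, 61.9 and 57.1 CPM in shFOS kidneys. These overlapped, and its log2 fold change was -0.05 ± 0.11. The annotated span of *Il11ra1* holds or touches 6 other genes on either strand and the gene has a close copy, *Il11ra2*, so its counts are uncertain.

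Both kinases were higher in every shFOS kidney. *Jak1* (chromosome 4, 101152367 to 101265282, - strand) had 97.8, 88.1, 99.1 and 80.9 CPM in shNT and 101, 131, 144 and 122 CPM in shFOS kidneys, with a log2 fold change of 0.45 ± 0.13. *Jak2* (chromosome 19, 29251828 to 29313080, + strand) had 39.4, 34.8, 37.0 and 36.4 CPM in shNT and 43.7, 49.5, 39.5 and 55.7 CPM in shFOS kidneys. Its groups came close without overlap, at shFOS replicate 3 and shNT replicate 1, and its log2 fold change was 0.36 ± 0.11.

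Downstream of the kinases, *Stat3* overlapped between the groups and *Socs3* did not. *Stat3* (chromosome 11, 100885098 to 100939540, - strand) had 109.5, 107, 91.4 and 149 CPM in shNT and 92.9, 107, 105 and 89.0 CPM in shFOS kidneys, and the log2 fold change was -0.21 ± 0.14. *Socs3* (chromosome 11, 117966079 to 117970047, - strand), whose Stat motif is printed above, had 13.4, 12.3, 14.2 and 29.6 CPM in shNT and 8.49, 12.0, 8.16 and 9.11 CPM in shFOS kidneys. Every shFOS value was below every shNT value, and shNT replicate 4 was the highest of all kidneys for both genes. With it, the log2 fold change of *Socs3* was -0.87 ± 0.28, and without it -0.50 ± 0.14, while that of *Stat3* went from -0.21 ± 0.14 to -0.06 ± 0.11. The same library had 157.6 CPM of *Lcn2*, an acute-phase gene, against 33.7 to 48.4 CPM in the other shNT kidneys, and 16.6 CPM for the sum of 5 neutrophil markers against 1.74 to 2.07 CPM. *Il6* itself (chromosome 5, 30013114 to 30019981, + strand) was near the limit of the assay, with 36 reads over all 16 libraries. It had 4, 7, 3 and 3 reads in shNT kidneys and 0, 0, 2 and 4 in shFOS kidneys. It did not pass the filter on low counts, and a count of 0 allows up to 3 reads, which is 0.138 to 0.277 CPM depending on the library. Its difference between treatments was not tested.

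**Figure D1:**
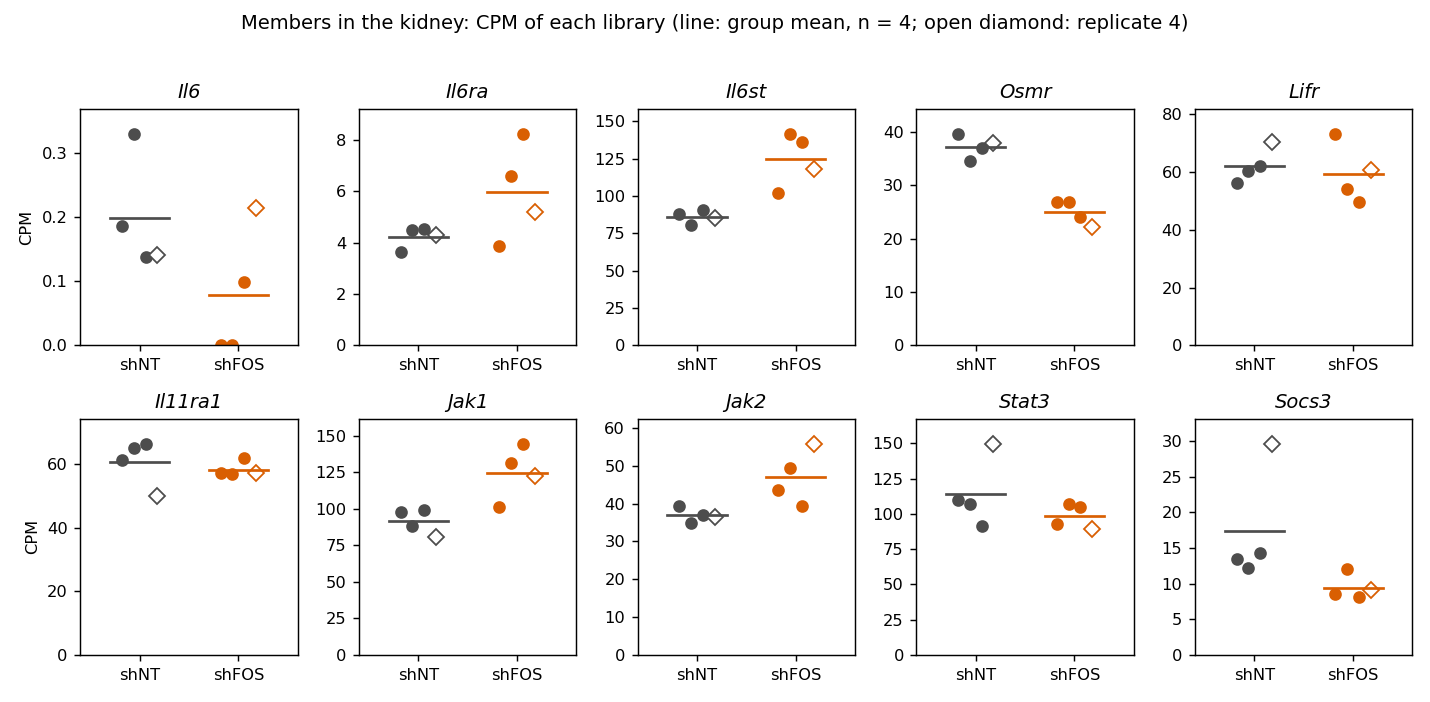
Level of each of the 10 members in the 8 kidney libraries, in CPM on linear axes from 0. Points are libraries, lines are group means (n = 4) and open diamonds mark replicate 4. *Il6st*, *Jak1* and *Jak2* lie higher and *Osmr* and *Socs3* lower in all shFOS than in all shNT kidneys.

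Over the 9 members that passed the filter, 3 were higher and 2 lower in the shFOS kidneys without overlap. Over all 14892 genes tested, 9.9% were higher and 7.29% lower without overlap. Since the list was made with this comparison known, nothing is read from these shares. The median log2 fold change was -0.05 over the 9 members and 0.00 over all genes. Over all genes, edgeR called 0 at an adjusted p under 0.05 (0%), with 17.1% higher and 14.8% lower at an unadjusted p under 0.05. DESeq2 called 11.4% of 13681 genes higher and 8.3% lower. Without kidney shFOS replicate 1, edgeR called 4126 of 15006 genes (27.5%).

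Levels of cell type markers and clock genes were also compared between the kidney groups. All marker sums below overlapped between the groups. The summed proximal tubule markers were 2543 to 5258 CPM in shNT and 5154 to 6961 CPM in shFOS kidneys, with all 5 markers detected and all 5 fitted fold changes above 0. The summed endothelial markers (5 of 5 detected) were 215.0 to 348.8 CPM in shNT and 330.0 to 430.2 CPM in shFOS kidneys. Markers of T and B cells (5 of 5 detected) summed to 4.06 to 92.0 CPM in shNT and 9.65 to 18.4 CPM in shFOS kidneys, and those of macrophages (6 of 6 detected) to 84.0 to 174.1 CPM and 110.9 to 144.7 CPM. The summed neutrophil markers were 1.74 to 16.6 CPM in shNT and 2.04 to 3.86 CPM in shFOS kidneys, and *Ly6g*, which defines neutrophils, was at 0 in every shFOS kidney and at most 0.0934 CPM in shNT kidneys. Fibroblast and pericyte markers (5 of 5 detected) summed to 271.4 to 377.6 CPM and 268.9 to 342.5 CPM. Kidney shNT replicate 4 was the lowest shNT kidney for all these sums except the neutrophil one, where it was the highest. The other shNT kidneys had 4132 to 5258 CPM for proximal tubule and 325.5 to 348.8 CPM for endothelial markers. They had 17.7 to 92.0 CPM for T and B cell, 138.5 to 174.1 CPM for macrophage and 317.1 to 377.6 CPM for fibroblast and pericyte markers. Of 8 clock genes, 7 had a fitted fold change below 0 and 1 above 0, and edgeR called 0. The 2 with the smallest p were *Per3* and *Arntl*. *Per3* averaged 17.5 ± 3.84 CPM in shNT and 5.28 ± 1.28 CPM in shFOS kidneys, and *Arntl* 14.6 ± 4.28 CPM and 30.5 ± 2.75 CPM. The part of cell composition and of time of day in the members' values was not tested.

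In the liver the members showed another picture, in which one shNT library set much of the difference. *Socs3* had 12.3, 17.0, 13.2 and 204 CPM in the shNT livers and 11.6, 10.2, 12.2 and 8.22 CPM in the shFOS livers. The groups did not overlap, but replicate 4 of shNT was 14.4 times the mean of the other 3 shNT livers. The log2 fold change was -2.55 ± 0.95 with it and -0.45 ± 0.18 without it. *Osmr* had 9.79, 9.60, 5.93 and 49.99 CPM in shNT and 7.58, 8.22, 12.3 and 8.48 CPM in shFOS livers, where the same library was 5.92 times the mean of the others. Here the groups overlapped, and the log2 fold change of -1.05 ± 0.63 became 0.10 ± 0.24 without that library.

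The IL-6 chain *Il6ra* and *Stat3* were also at their highest in liver shNT replicate 4. *Il6ra* had 43.1, 36.3, 38.4 and 70.2 CPM in shNT and 35.8, 48.6, 36.0 and 45.7 CPM in shFOS livers, and its log2 fold change of -0.19 ± 0.21 turned to 0.05 ± 0.14 without that library. *Stat3* had 293, 276, 246 and 358 CPM in shNT and 229.5, 251, 257 and 241 CPM in shFOS livers, with log2 fold changes of -0.27 ± 0.14 and -0.18 ± 0.10. Both genes overlapped between the groups. *Il6* had 0, 1, 2 and 7 reads in shNT livers, the 7 reads in replicate 4, and 1, 0, 2 and 0 reads in shFOS livers.

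*Lifr* varied the most of the 9 members tested in the liver. It had 3674, 2084, 2065 and 93.3 CPM in shNT and 557, 2069.9, 232 and 1181 CPM in shFOS livers. The same shNT library, the highest for *Osmr* and *Socs3*, was the lowest of all for *Lifr*, at 0.036 of the mean of the other 3 shNT livers. The highest liver was 39.4 times the lowest, a ratio that 0.534% of the 13144 genes tested exceeded, and *Lifr* spread widely within the shFOS group too. Its log2 fold change was -0.99 ± 0.94 with all libraries and -1.40 ± 0.67 without shNT replicate 4.

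Of the other members, *Il11ra1* was higher in every shFOS liver, with 58.6, 56.5, 51.7 and 43.5 CPM in shNT and 82.5, 63.6, 67.4 and 76.2 CPM in shFOS livers and a log2 fold change of 0.45 ± 0.13, or 0.36 ± 0.11 without shNT replicate 4. *Il6st* had 149.9, 122, 134 and 162 CPM in shNT and 136, 155, 117 and 133 CPM in shFOS livers, and the groups overlapped (-0.08 ± 0.13). *Jak1* had 125, 116, 134 and 141 CPM and 132, 136, 149.7 and 121 CPM (0.05 ± 0.11), and *Jak2* had 24.5, 24.1, 24.96 and 23.1 CPM and 21.3, 26.6, 21.8 and 26.7 CPM (-0.02 ± 0.11). The kinases and *Il6st*, which separated the groups in the kidney, thus overlapped between the groups in the liver.

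**Figure D2:**
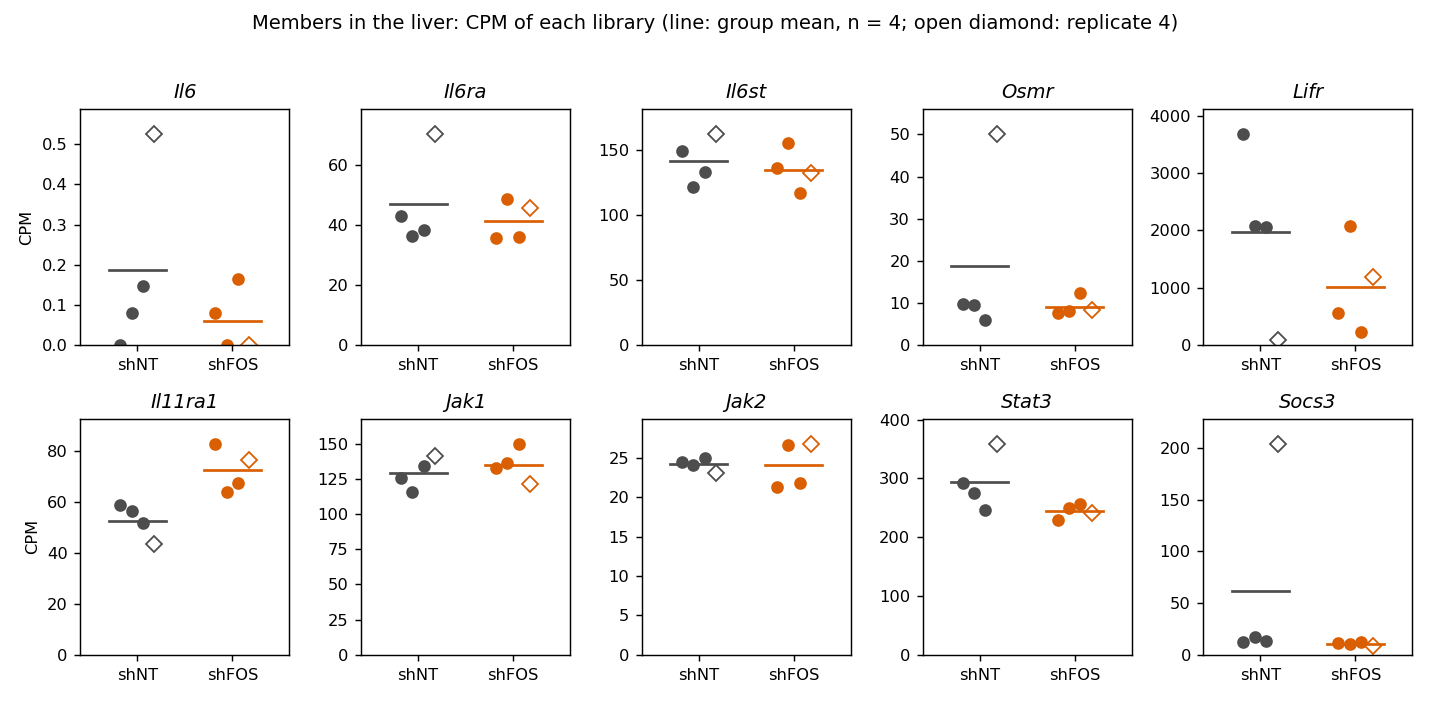
Level of each of the 10 members in the 8 liver libraries, in CPM on linear axes from 0. Points are libraries, lines are group means (n = 4) and open diamonds mark replicate 4. The shNT diamond is the highest liver for *Il6*, *Il6ra*, *Il6st*, *Osmr*, *Stat3* and *Socs3* and the lowest for *Lifr* and *Il11ra1*.

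Among the 9 members tested in the liver, 1 was higher (*Il11ra1*) and 1 lower (*Socs3*) in shFOS without overlap, beside 3.23% and 1.33% of 13144 genes. The median log2 fold change was -0.19 over the members and -0.01 over all genes. As in kidney, nothing is read from these shares. Over all genes, edgeR called 0 at an adjusted p under 0.05 (0%), with 3.58% higher and 3.16% lower at an unadjusted p under 0.05, and DESeq2 called 37 genes, 0.141% higher and 0.166% lower. Liver shNT replicate 4 was the highest of the 8 livers for 5 of the 9 members. In it, the summed neutrophil markers (5 of 5 detected) were 136.9 CPM against 16.7 to 35.6 CPM in the other shNT livers and 5.14 to 41.4 CPM in shFOS livers, and the summed hepatocyte markers were 59346 CPM against 163998 to 260232 CPM and 156295 to 228899 CPM. *Alb* made up most of the hepatocyte sum, with a mean of 144115 CPM in shNT livers beside 165059 CPM for the sum. Without replicate 4, the log2 fold changes of *Alb*, *Ttr* and *Serpina1c* went down (0.09 to -0.24, 0.87 to 0.63 and 0.25 to 0.10). Those of *Apoa1* and *Cps1* went up (0.05 to 0.20 and 0.61 to 0.65), so replicate 4 was not low for all 5 markers.

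The other markers and the clock genes of the liver groups were as follows, and all marker sums given here overlapped between the groups. The summed macrophage markers (6 of 6 detected) were 166.5 to 945.0 CPM in shNT and 205.0 to 380.2 CPM in shFOS livers, with all 6 fitted fold changes below 0 and a median of -0.72, or -0.84 without shNT replicate 4. The shNT sums spread widely (461.6 ± 335.9 CPM), and the highest was not replicate 4, which had 363.6 CPM. Fibroblast and pericyte markers (5 of 5 detected) summed to 267.8 to 447.3 CPM in shNT and 407.4 to 536.4 CPM in shFOS livers, and endothelial markers (5 of 5) to 162.5 to 218.6 CPM and 189.5 to 233.5 CPM. Markers of T and B cells (5 of 5) summed to 3.90 to 60.4 CPM and 11.5 to 25.6 CPM. Of 8 clock genes, 6 had a fitted fold change below 0 and 2 above 0, and edgeR called 0. The 2 with the smallest p were *Nr1d1* and *Nr1d2*. *Nr1d1* averaged 56.3 ± 42.5 CPM in shNT and 9.73 ± 8.25 CPM in shFOS livers, and *Nr1d2* 61.6 ± 32.0 CPM and 29.2 ± 11.02 CPM. The part of cell composition and of time of day in the members' values was not tested.

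**Figure D3:**
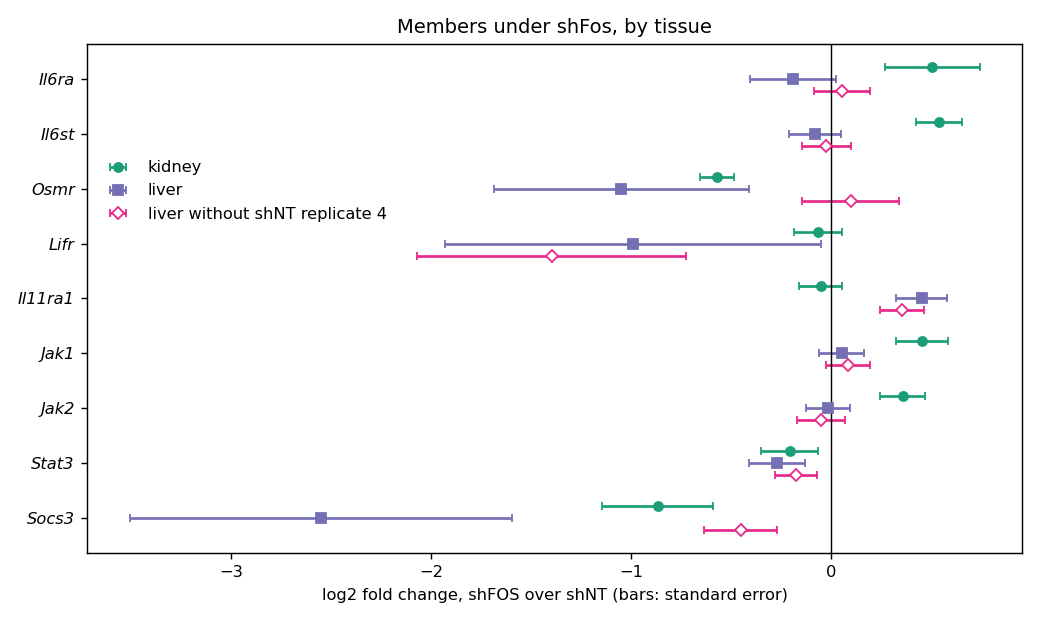
Log2 fold change of shFOS over shNT for the 9 members above the filter on low counts, with standard errors, in kidney, in liver and in liver without shNT replicate 4. Without that library the liver values of *Osmr* and *Socs3* move from -1.05 and -2.55 to 0.10 and -0.45, whereas *Lifr* goes from -0.99 to -1.40.

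Next, the tissues were compared in the 8 shNT libraries. By edgeR's quasi-likelihood test, 5 of the 9 members were higher in liver and 1 in kidney at an adjusted p under 0.05. Over 14875 genes, 27.7% were called higher in liver and 32.3% higher in kidney. Of the called members, *Lifr* and *Il6ra* differed the most. *Lifr* was 31.6-fold higher in liver (log2 kidney over liver -4.98 ± 0.90, adjusted p = 0.00116), although liver shNT replicate 4 came close to the kidney range of 56.2 to 70.4 CPM. *Il6ra* was 11.05-fold higher in liver (-3.47 ± 0.23, adjusted p = 2.64e-06), and every liver was above every kidney. *Il6st* was 1.64-fold higher in liver (-0.72 ± 0.12, adjusted p = 0.000587).

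*Osmr* was higher in every shNT kidney than in 3 of the 4 shNT livers. Its kidney level of 37.3 ± 2.12 CPM (SD, n = 4) compared with 5.93, 9.60 and 9.79 CPM in 3 livers and 49.99 CPM in replicate 4. With all libraries the difference was not called (0.99 ± 0.60, adjusted p = 0.183). It was called higher in kidney without liver shNT replicate 4 (2.12 ± 0.18, adjusted p = 1.53e-05), and also with the replicate number as a block (1.52 on the log2 scale, adjusted p = 0.0425). In the 8 shFOS libraries, which this test did not use, the difference was 1.45 ± 0.16 (adjusted p = 1.59e-05).

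Of the signal components, *Stat3* was 2.56-fold higher in liver (-1.36 ± 0.18, adjusted p = 0.000173) and *Jak1* 1.40-fold (-0.49 ± 0.12, adjusted p = 0.00591). *Jak2* had the reverse order, 1.53-fold higher in kidney (0.62 ± 0.09, adjusted p = 0.000249). *Socs3* was not called (-1.83 ± 0.94, adjusted p = 0.1202), and without liver shNT replicate 4 its sign turned (0.26 ± 0.32, adjusted p = 0.502). *Il11ra1* was not called either (0.22 ± 0.13, adjusted p = 0.197). Under upper-quartile normalization, which moved the median of all genes by 0.17 on the log2 scale, *Il11ra1* was called higher in kidney (0.39, adjusted p = 0.0312), and in the shFOS libraries it was called higher in liver (-0.31 ± 0.10, adjusted p = 0.0151). *Il6* averaged 0.198 ± 0.0897 CPM (SD, n = 4) in kidney and 0.188 ± 0.232 CPM (SD, n = 4) in liver, and an exact two-sided permutation test over 70 assignments gave p = 0.971. In the shFOS libraries *Il6ra*, *Lifr*, *Stat3* and *Jak2* were called with the same direction, while *Il6st* (-0.12 ± 0.13, adjusted p = 0.424) and *Jak1* (-0.11 ± 0.12, adjusted p = 0.434) were not.

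Levels of different genes were compared per kilobase of exon, over the union of all annotated exons of a gene. The counts of *Il11ra1* are uncertain, as stated above, and so is its place in the order. In shNT kidneys the order by mean was *Il11ra1* (13.6 CPM per kb), *Jak1* (12.7), *Stat3* (12.0), *Il6st* (7.75), *Jak2* (7.34), *Socs3* (6.01), *Lifr* (5.78), *Osmr* (3.08), *Il6ra* (0.490) and *Il6* (0.0816), all in CPM per kb. Neighbours overlapped in this order from *Il11ra1* to *Stat3* and from *Il6st* to *Lifr*, and *Osmr*, *Il6ra* and *Il6* were each separate from the gene above. In shNT livers the means per kb were led by *Lifr* (183.7), *Stat3* (30.8), *Socs3* (21.3) and *Jak1* (17.9), whose neighbours overlapped. *Il6st* (12.8), *Il11ra1* (11.8), *Il6ra* (5.44), *Jak2* (4.801), *Osmr* (1.55) and *Il6* (0.0775) followed, all in CPM per kb, and of these *Il6st* overlapped *Il11ra1* and *Il6ra* overlapped *Jak2*. Liver shNT replicate 4 set part of this order. Without it, *Lifr* averaged 242.0 CPM per kb and *Socs3* 4.90 CPM per kb, below *Jak1* (17.3), *Il11ra1* (12.4) and *Il6st* (12.2), while *Osmr* had 0.697 CPM per kb. The ligand-specific IL-6 chain was thus below its partner *Il6st* in both tissues, 7.75 against 0.490 CPM per kb in kidney and 12.8 against 5.44 CPM per kb in liver.

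**Figure D4:**
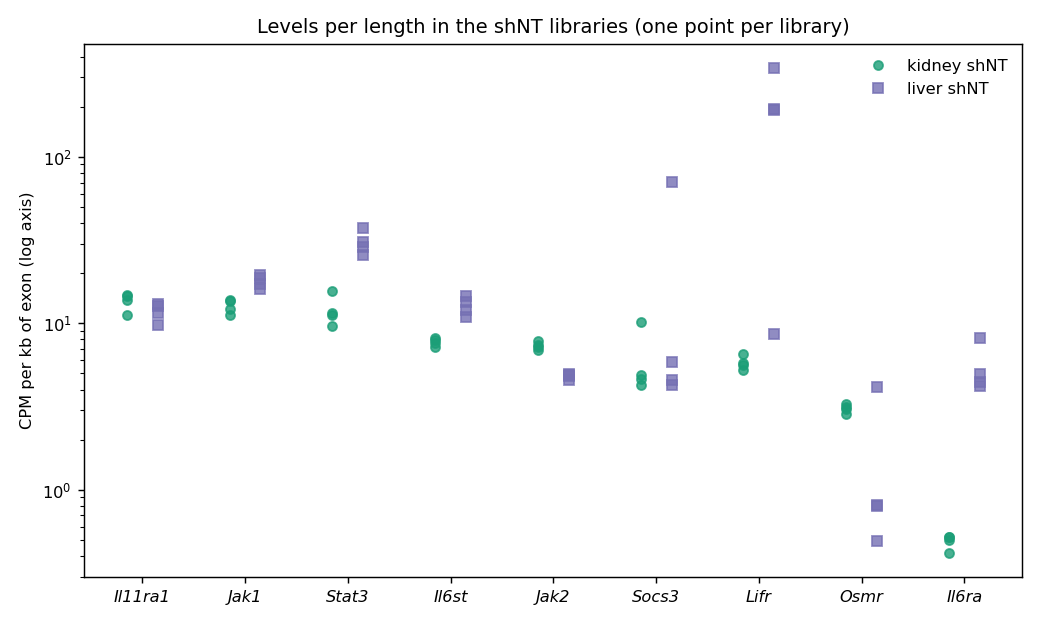
Levels per kilobase of exon in the 4 kidney and 4 liver shNT libraries, one point per library, on a log axis. *Il6* is left out because libraries were at 0. *Il6ra* and *Lifr* are higher in liver, *Osmr* is higher in kidney than in 3 of 4 livers, and *Jak2* is higher in every kidney.

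The treatment differences in the 2 tissues were then set against each other in one fit, as the log2 fold change in kidney minus that in liver. This difference was 0.60 ± 0.17 for *Il6st*, 0.38 ± 0.16 for *Jak1*, 0.35 ± 0.16 for *Jak2* and -0.52 ± 0.16 for *Il11ra1*. It was 0.47 ± 0.66 for *Osmr* and 1.67 ± 1.02 for *Socs3*, and both turned sign without liver shNT replicate 4, to -0.70 ± 0.24 and -0.45 ± 0.37. These values are a description too. Over all genes, edgeR called 0 of 15421 (0%), with 16.1% at an unadjusted p under 0.05, and DESeq2 called 2.95% of 11629.

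The rest of the pathway was followed in 7 lists. In both tissues edgeR called 0 genes of every list, and the medians below stand beside 0.00 over all genes in kidney and -0.01 in liver. The counts below at an unadjusted p under 0.05 stand beside 17.1% of all genes higher and 14.8% lower in kidney and 3.58% higher and 3.16% lower in liver, and those by DESeq2 beside 11.4%, 8.3%, 0.141% and 0.166% in the same order. Among ligands of the IL-6 family, 6 of 11 passed the filter in kidney and 2 in liver. *Clcf1*, a ligand of the ciliary neurotrophic factor receptor, was lower in shFOS kidneys, with 9.83 ± 1.125 CPM in shNT and 3.84 ± 1.88 CPM in shFOS (log2 fold change -1.35 ± 0.28, adjusted p = 0.066). *Lif* had 2.97 ± 1.56 CPM and 1.91 ± 0.276 CPM. In liver, *Ctf1*, cardiotrophin 1, had 6.28 ± 1.14 CPM in shNT and 9.32 ± 0.861 CPM in shFOS, and *Clcf1* 5.59 ± 6.26 CPM and 3.05 ± 1.90 CPM. The log2 fold change of *Clcf1* in liver was -0.88, and 0.26 without shNT replicate 4. The unadjusted test had 1 of the 6 lower in kidney (*Clcf1*, which DESeq2 called) and 1 of the 2 higher in liver (*Ctf1*, which DESeq2 did not call). The median log2 fold change was -0.40 in kidney and -0.16 in liver, and the latter turned to 0.34 without liver shNT replicate 4. Without kidney shNT replicate 4, 2 were lower in kidney and the median was -0.59.

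Of 10 other receptors that signal through Stat3, 8 passed the filter in each tissue. In kidney 1 was higher and 1 lower at an unadjusted p under 0.05, and DESeq2 called 1 lower. Without kidney shNT replicate 4 these counts became 0 higher and 2 lower. The genes were *Il22ra1*, an IL-22 receptor chain (3.14 ± 0.413 CPM in shNT, 4.54 ± 1.11 CPM in shFOS), and *Csf3r*, the receptor of granulocyte colony-stimulating factor (5.403 ± 1.38 CPM and 3.005 ± 0.557 CPM). In liver neither direction had one, and the same pair had the smallest p, with 14.2 ± 6.13 CPM and 9.91 ± 1.88 CPM for *Csf3r* and 23.8 ± 8.11 CPM and 13.5 ± 8.78 CPM for *Il22ra1*. The median log2 fold change was -0.27 in kidney and -0.23 in liver, the latter -0.10 without shNT replicate 4.

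All 8 other Jak and Stat genes passed the filter in both tissues. In kidney 3 were lower at an unadjusted p under 0.05 (2 by DESeq2), led by *Jak3*, the kinase of receptors with the common gamma chain (32.0 ± 2.53 CPM in shNT, 18.9 ± 6.69 CPM in shFOS, log2 fold change -0.76 ± 0.20, adjusted p = 0.0667), and *Stat2*, a factor of interferon signaling (33.8 ± 13.2 CPM and 20.3 ± 4.63 CPM). So *Jak3* was lower in the kidneys where *Jak1* and *Jak2* were higher. In liver 1 was higher, *Stat4*, which acts downstream of IL-12 (0.836 ± 0.358 CPM in shNT and 1.76 ± 0.626 CPM in shFOS), followed by *Stat5a*, a factor of prolactin and growth hormone signaling (24.9 ± 4.63 CPM and 33.3 ± 9.92 CPM). The medians were -0.06 in kidney and 0.12 in liver, and -0.18 and 0.036 without shNT replicate 4 of the tissue, where *Stat4* no longer had an unadjusted p under 0.05.

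The 15 negative regulators and 4 genes of receptor shedding all passed the filter. Of the regulators, 5 were higher and 2 lower in kidney at an unadjusted p under 0.05 (3 higher and 0 lower by DESeq2), with *Ptpn11*, the phosphatase SHP2 that docks on gp130 (66.7 ± 5.24 CPM in shNT, 89.0 ± 11.1 CPM in shFOS), and *Socs7* (24.5 ± 1.72 CPM and 30.7 ± 1.98 CPM) at the smallest p. Without kidney shNT replicate 4, 4 were higher and 1 lower. In liver 1 was lower, *Ptpn1*, a phosphatase of JAK2 (62.9 ± 11.3 CPM and 46.4 ± 8.77 CPM), and *Pias1* had 27.9 ± 2.66 CPM and 24.2 ± 1.68 CPM. Their medians were 0.02 and -0.20, the latter -0.11 without liver shNT replicate 4. *Adam10*, a protease that can release IL6RA from the cell surface, had opposite orders in the tissues, from 62.7 ± 2.14 CPM in shNT to 80.2 ± 8.54 CPM in shFOS kidneys and from 57.6 ± 6.07 CPM to 44.0 ± 3.08 CPM in livers. *Rhbdf1*, a partner of the protease ADAM17, had 43.1 ± 4.11 CPM and 26.6 ± 6.17 CPM in kidney and 13.9 ± 3.28 CPM and 11.5 ± 1.43 CPM in liver. Of the 4 shedding genes, 2 were higher and 2 lower in kidney at an unadjusted p under 0.05 and 1 lower in liver, with medians of 0.03 and -0.28, or -0.024 and -0.075 without shNT replicate 4 of the tissue. DESeq2 called 1 of them higher and 1 lower in kidney.

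Among 18 genes listed from memory as Stat3 target genes, 16 had a fold change below 0 in kidney and 14 in liver, with medians of -0.35 and -0.38. At an unadjusted p under 0.05, 8 were lower and 1 higher in kidney (5 and 1 by DESeq2), and 6 were lower in liver (0 by DESeq2). Of all genes, 14.8% in kidney and 3.16% in liver were lower at that p. The higher one in kidney was *Bcl6*, a transcriptional repressor (13.8 ± 2.78 CPM in shNT, 24.7 ± 6.97 CPM in shFOS), and the lower one with the smallest p was *Junb*, itself an AP-1 subunit (38.0 ± 1.48 CPM and 25.8 ± 6.27 CPM, log2 fold change -0.55 ± 0.15, adjusted p = 0.066). In liver they were *Tnfrsf1a*, a TNF receptor (184 ± 45.0 CPM and 118 ± 6.82 CPM), and the kinase gene *Pim1* (40.4 ± 15.7 CPM and 27.3 ± 2.03 CPM), whose log2 fold change went from -0.58 to -0.29 without shNT replicate 4. Without shNT replicate 4 of the tissue, 8 were lower and 2 higher in kidney, and 2 were lower and 1 higher in liver, where the median became -0.17.

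Of 25 genes listed from memory as acute-phase genes that IL-6 induces, 18 passed the filter in kidney and 24 in liver. In liver 23 of 24 had a fold change below 0 with a median of -0.96, and 7 were lower at an unadjusted p under 0.05 (1 by DESeq2). Liver shNT replicate 4 was the highest of the 8 livers for 21 of the 24 genes, or 87.5%, beside 26.9% of all genes. Without it, 20 of 24 were below 0, 4 were lower at an unadjusted p under 0.05 and the median was -0.28. *Saa2*, serum amyloid A2, had 79.4, 361, 50.1 and 15366 CPM in shNT livers and 60.4 ± 28.9 CPM in shFOS livers. Its log2 fold change was -6.04 ± 1.91 with all libraries and -1.45 without that one. *Cp*, ceruloplasmin, had 6883 ± 2074 CPM in shNT and 3299 ± 930.4 CPM in shFOS livers, with log2 fold changes of -1.07 ± 0.29 and -0.89. In kidney 13 of 18 were below 0 with a median of -0.38, and 2 were lower at an unadjusted p under 0.05 (0 by DESeq2), *Lcn2* (69.6 ± 59.0 CPM in shNT, 26.4 ± 18.3 CPM in shFOS) and *Cp* (235 ± 99.1 CPM and 159.7 ± 21.8 CPM). Without kidney shNT replicate 4, the log2 fold change of *Lcn2* went from -1.39 to -0.62 and that of *Cp* from -0.55 to -0.22, 10 of 18 were below 0, the median was -0.14 and 0 had an unadjusted p under 0.05.

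**Figure D5:**
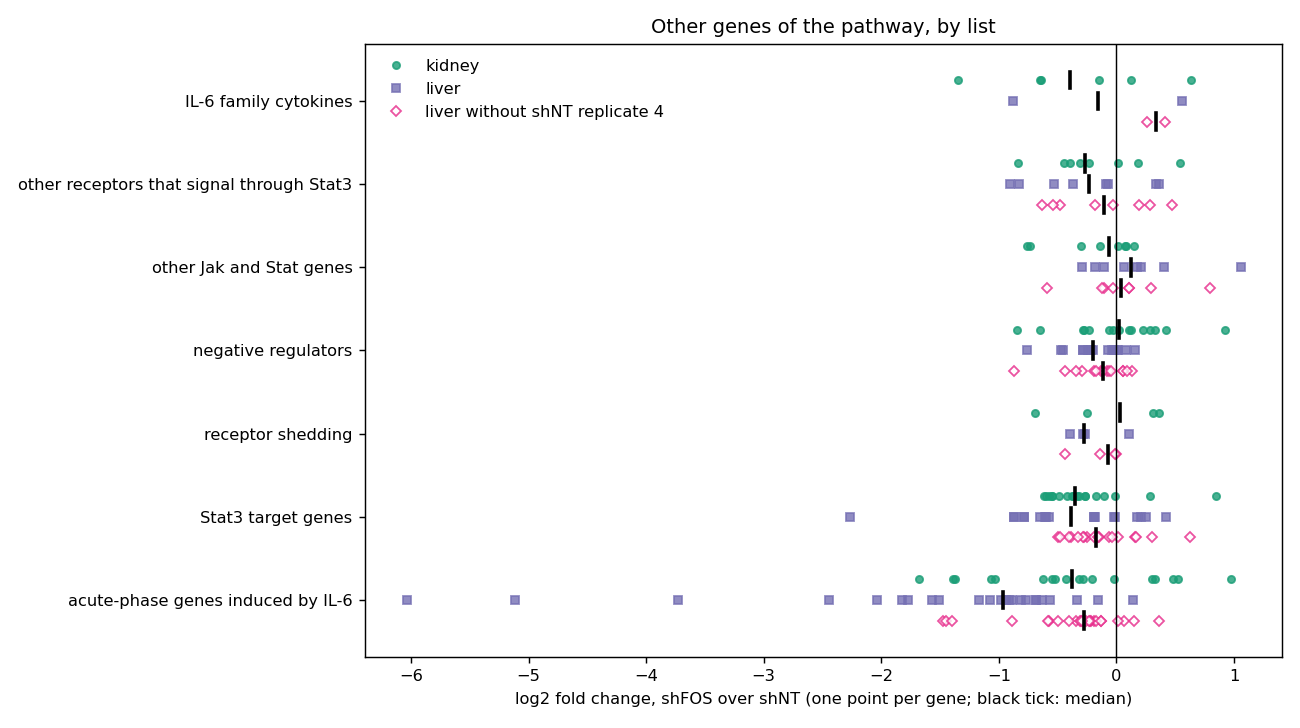
Log2 fold change of shFOS over shNT for the genes of the 7 lists, one point per gene, in kidney, in liver and in liver without shNT replicate 4, with black ticks at the medians. The median of the acute-phase genes in liver is -0.96 with that library and -0.28 without it.

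Finally, genes were ranked by how closely their log2 CPM followed that of *Socs3* over the 16 libraries after the 4 group means were removed. Of 15420 genes, *D7Ertd143e* (r = 0.957), *Cebpd* (r = 0.957) and *Cyp2d9* (r = 0.952) were the most alike. *Cebpd*, a transcription factor of the acute phase, had 8.86, 14.0, 9.59 and 56.9 CPM in the shNT livers. The libraries come from 2 tissues and differ in depth and in cell type markers, and 1 library weighed heavily: without liver shNT replicate 4, over 15 libraries, the values were 0.697, 0.825 and 0.812. Among the members, *Osmr* (r = 0.908) and *Stat3* (r = 0.672) were the closest to *Socs3* and *Lifr* (r = -0.841) the most opposed. Without that library *Osmr* had r = 0.229 and *Lifr* r = -0.224, while *Stat3* kept r = 0.672. Kidney shNT replicate 4, the highest kidney for both *Stat3* and *Socs3*, stayed among the 15 libraries and was not left out.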

How the data were processed

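RNA-seq of kidney and liver, 16 libraries in 4 groups set by the labels, was used. The authors trimmed reads with Trimmomatic 0.39, aligned them to mm10 with HISAT2 2.2.1 and used HTSeq-count 0.12.4, with strand ignored, to assign them to genes, and the deposited values are raw counts. Counting without strand leaves overlapping and antisense genes uncertain. Lines that name no gene were left out: 13.4% to 26.7% of reads fell on no feature and 1.84% to 2.64% were ambiguous. Of the symbols, 98.2% matched GENCODE M21, which gave positions and exon lengths and can differ from the authors' annotation.

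Each comparison was fitted over all genes with edgeR 4.0.16 under R 4.3.3 (a robust quasi-likelihood test after TMM and filterByExpr, Benjamini-Hochberg adjustment, threshold 0.05). Calls of the study's own tool, DESeq2 (version 1.42.0 here), were an alternative. Printed CPM use TMM factors of all 16 libraries, and log2 CPM used a prior count of 2. Values after ± are SDs (n = 4) for CPM and SEs for log2 fold changes. The scripts were tested on simulated counts with 200 genes changed 2-fold. There edgeR recovered 70.5% of them in kidney, 35.5% in liver, 36.5% between tissues and 22% for the interaction. DESeq2 recovered 78%, 68.5%, 63.5% and 47.5% in the same order. False calls were 11, 5, 3 and 0 by edgeR and 53, 37, 50 and 23 by DESeq2. A count of 0 by edgeR thus does not show that no gene changed. Intervals and limits from counts cover counting error only. The labels do not say that libraries came from separate animals, so p-values measure the spread between libraries. No pair of libraries in a group was close enough to be the same library (smallest chi-square per degree of freedom 7.17).

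The members, lists and tests were chosen with earlier results of these data known. Genes named are *Fos*, the members, the 2 genes of each list with the smallest p in each tissue, and the 3 most like *Socs3*; *Ly6g*, *Saa1* and the other genes named were added after their values were seen. Marker and pathway lists were written from memory. Alternatives were DESeq2, upper-quartile normalization, no filter, a mean of at least 10 counts, the replicate number as a block, one fit of all libraries, a GC correction (lowess span 0.3) and leaving out each library. Counts of list genes and levels per kilobase without single libraries were added after seeing the data. Replicate numbers are shared between groups. Deviations of same-numbered kidney and liver shNT libraries correlated weakly (r from 0.12 to 0.33, each over 0.1). Of these, 3 correlated best with their own number, and replicate 1 did not. Between kidney and liver shFOS libraries r ranged from 0.039 to 0.147, not always over 0.1, and 3 correlated best with their own number. The numbers may thus pair the libraries of the 2 tissues, but this is not settled. The main fits of the tissue comparison and of the interaction left a pairing out. The block on replicate number was only an alternative.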

Additional observations from a re-analysis of the deposited data

Results flagged for a closer look

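In 40 groups of 4 libraries (10 members, 4 groups), 4 single libraries lay apart from their group by Dixon's test at the 95% level, where chance gives about 2. Liver shNT replicate 4 stood apart for *Socs3*, at 203.7 CPM against 12.3 to 17.0 CPM in the other shNT livers, and for *Osmr*, at 49.99 CPM against 5.93 to 9.79 CPM. Kidney shNT replicate 4 stood apart for *Socs3*, at 29.6 CPM against 12.3 to 14.2 CPM. Kidney shFOS replicate 3 stood apart for *Il11ra1*, at 61.9 CPM against 56.9 to 57.2 CPM.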

How the results depend on the processing

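Between tissues, *Il6ra*, *Lifr*, *Stat3* and *Jak2* kept their direction and their call under every alternative that gave an adjusted p. *Il6st* and *Jak1* kept theirs under all except the shFOS libraries in place of shNT. There *Il11ra1* turned to -0.31. The calls between treatments depended on the tool and on single libraries, and the cause was not tested. DESeq2 called 2693 genes in kidney (5 members), 37 in liver and 343 for the interaction (1 member), against 0 by edgeR. In kidney, no filter on low counts gave 3 calls and one fit of all 16 libraries 994 (2 members). Leaving out single libraries gave 0 to 4126 calls in kidney (0 to 4 members) and 0 to 1246 for the interaction. In both cases the most came without kidney shFOS replicate 1, where the 4126 kidney calls were 27.5% of 15006 genes. The counts of members rest on values known when the list was made, and nothing is read from them. A GC correction turned *Il11ra1* in kidney to 0.064.

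Leaving out single libraries also turned some members' log2 fold changes. In kidney, *Lifr* ranged from -0.21 to 0.0052. In liver, *Il6ra* ranged from -0.30 to 0.054, *Osmr* from -1.35 to 0.10, *Jak1* from -0.014 to 0.10 and *Jak2* from -0.066 to 0.040. Between tissues, *Socs3* ranged from -2.21 to 0.26. For the interaction, *Osmr* ranged from -0.70 to 0.77, *Stat3* from -0.064 to 0.23 and *Socs3* from -0.45 to 2.09. The kidney minus liver difference of *Il6* ranged from -0.053 to 0.122 CPM. Of the members' log2 fold changes under all alternatives, 133 of 135 in kidney and 127 of 135 in liver kept their sign and moved by less than 1 SD between libraries. Leaving out a single library of a group can hardly move its mean by 1 SD, whatever the values. These counts therefore do not measure how far a result rests on a single library.

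With the replicate number as a block, edgeR called 0 genes in kidney, 0 in liver and 0 for the interaction, and 9313 between tissues, where *Osmr* joined the called members. The block changed no other call on a member. Between treatments the libraries share only a number, with same-numbered deviations correlating from -0.14 to 0.11 in kidney and -0.24 to 0.04 in liver, and 0 of 4 libraries in either tissue correlating best with its own number. *Il6*, with at most 7 reads in a library, is limited by depth.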
